A study of Mus musculus with 27 samples.

Results

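The comparison described here is that of lacrimal glands 4 days after interleukin 1 alpha (IL-1α) with uninjured glands of day 0. It takes 6 of the 27 libraries of the series, 3 mice of day 4 and 3 mice of day 0, chosen by their labels. All were wild type female BALB/c mice, 8 to 10 weeks old per the labels, while the study's methods give an older age. The day 4 glands had been injected with 1 µg of the cytokine and the day 0 glands were left untreated, so the injection itself is part of the difference between the groups. RNA of the whole gland was sequenced, and each library is 1 mouse. In such bulk RNA, fewer cells of a type and less RNA per cell cannot be told apart.

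Day 4 mouse 1 had been left out of the published tests as an outlier in a principal component plot and a heatmap. The tests below are from mice 2 and 3 of day 4, and the values of all 3 mice are given. Results with mouse 1 put back are given beside the main counts, for many lists and wherever they change the call of a named gene. A list or role count given without them can differ with mouse 1. Values are RSEM estimated counts divided by 1 size factor per library, called normalized counts here. A gene was called when the limma test gave a Benjamini-Hochberg adjusted p of at most 0.05 over 13762 genes and the groups differed at least 2-fold on the log2(value + 1) scale, which understates the change of low genes. "Rose" and "fell" are used of called genes only.

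The lacrimal gland is an exocrine gland whose acinar cells secrete the watery and protein part of the tears. IL-1α is a cytokine released by injured cells, and injected into the gland it starts an inflammation after which the epithelium regrows. Cells that divide first license and copy their DNA and then build a spindle, separate the chromosomes and split, and the genes for the later steps are switched on together in the G2 and M phases. Fibroblasts of a healing gland lay down collagens, and monocytes drawn from the blood become macrophages that take up debris.

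The 3 day 4 libraries held about 9480000 to 11240000 estimated counts and the 3 day 0 libraries 11430000 to 13100000, and day 4 mouse 1 had the lowest and day 0 mouse 2 the highest total of the 26 libraries of the table. The 10 most abundant genes took 61.4 to 68.3% of the counts in day 4 glands and 70.8 to 75.3% in day 0 glands. Acinar genes were present in both groups. Aqp5, the water channel of acinar cells, was at 2083, 1970 and 1729 in day 4 mice 1 to 3, against 2262, 2104 and 2193 in day 0 mice 1 to 3. Transcripts of salivary and skeletal muscle type differed between single libraries. Bpifa2, a salivary protein gene, was at 10902, 155.6 and 270587 in day 4 glands, against 150525, 2616 and 36840 in day 0 glands. The 15 tested salivary genes summed to between 13689 and 488139 in day 4 glands and between 28160 and 275988 in day 0 glands. Acta1, the actin of skeletal muscle, was listed at 0 in the 3 day 4 libraries, against 84.22, 4.578 and 0 in day 0 glands. The 20 muscle genes summed to 35.8, 43.12 and 43.14 in day 4 glands, against 1079, 53.15 and 45.34 in day 0 glands, so that only day 0 mouse 1 was high. None of the 15 tested salivary and 20 tested muscle genes was called. The cells or tissue these transcripts came from and their part in the results were not tested.

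Between day 4 and day 0, 959 genes rose and 58 fell, which is 6.97% and 0.421% of the genes tested. With mouse 1 put back, 816 rose and 35 fell, or 5.93% and 0.254%. The calls in common were 748 genes that rose and 24 that fell. Over all genes tested, mice 2 and 3 both lay above every day 0 library in 23.3% and below every one in 21.9%, and all 3 day 4 mice did so in 14.5% and 11.9%. The split depended on the scaling. When libraries were scaled to equal totals, the median of all genes moved by 0.72 on the log2 scale, 3759 genes rose and 11 fell. All values below use the normalization of the deposited table, under which the median gene did not move. The count also leaned on single libraries, since 362 genes rose without day 4 mouse 2 and 658 without day 4 mouse 3, while 778 rose and 28 fell without day 0 mouse 1.

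**Figure D1:**
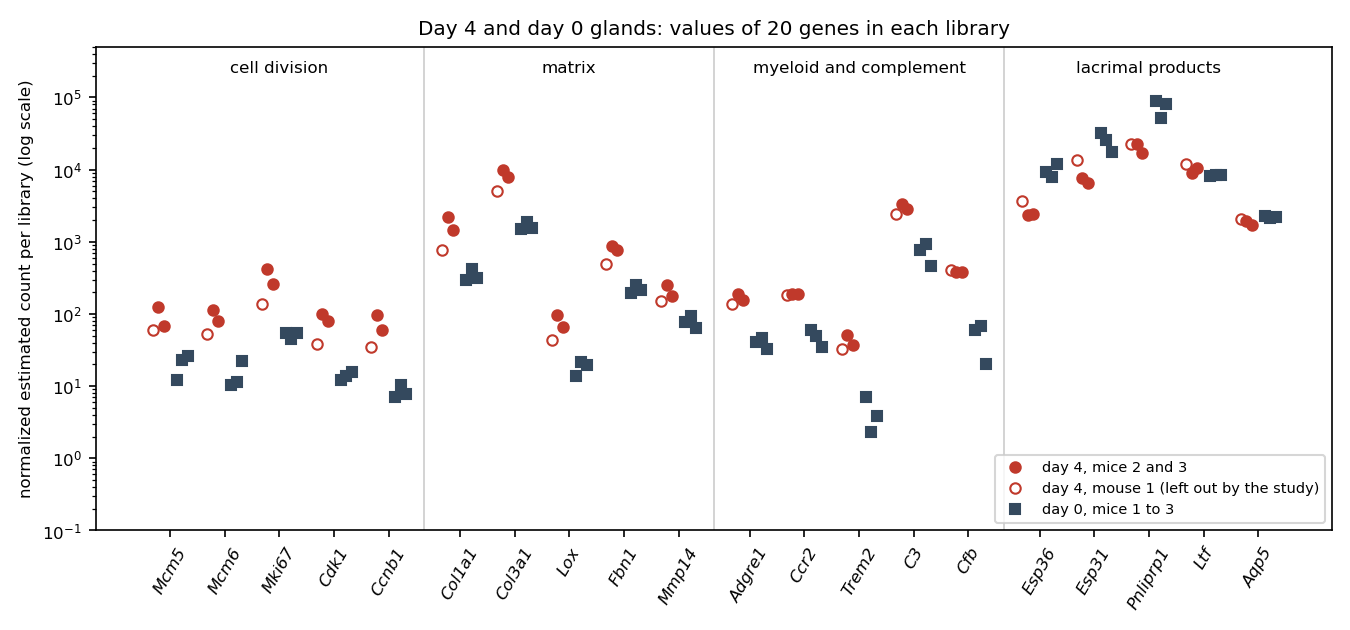
Normalized estimated counts (log axis) of 20 genes in each library, with the day 4 libraries as circles on the left of each gene (mouse 1 open) and the day 0 libraries as squares on the right. Cell division, matrix and myeloid genes are higher in the day 4 libraries, Esp36, Esp31 and Pnliprp1 are lower, and mouse 1 lies between mice 2 and 3 and the day 0 libraries for most division and matrix genes, as for Cdk1 at 38.08 against 101 and 79.38 in mice 2 and 3.

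Most genes of mitosis rose. Of 92 members, 7 did not pass the filter on low values, and of the 85 tested 70 rose and none fell. The median log2 fold change was 2.49, and with mouse 1 put back 60 rose with a median of 2.04. Against saline glands of day 14, 54 rose. The list depended on mouse 2, without which 18 members rose, against 57 without mouse 3, and the counts of most roles below fell with it (2 of 15 exit and cytokinesis genes rose, for example). Over all genes tested the median was 0.0.

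Mki67, the Ki-67 antigen present in cycling cells (chr7:135689784-135716361, GRCm38, minus strand), was at 138.3, 419.6 and 258 in day 4 mice 1 to 3, against 54.39, 44.59 and 54.6 in day 0 mice. The groups did not overlap, and mouse 1 stood below the other two injured mice. The log2 fold change was 2.67 (SE 0.443, limma adjusted p = 0.000475), and 2.25 with mouse 1 (adjusted p = 0.00143). Cdk1, the kinase that drives entry into mitosis (chr10:69335146-69352938, minus strand), was at 38.08, 101 and 79.38 in day 4 mice, against 12.28, 13.72 and 15.6 in day 0 mice. Its partner cyclin B1, Ccnb1, was at 34.5, 96.13 and 59.53 in day 4 mice, against 7.018, 10.29 and 7.8 in day 0 mice. Each was higher in all 3 injured glands than in any uninjured gland. The log2 fold changes were 2.61 for Cdk1 (SE 0.443, limma adjusted p = 0.000557) and 3.05 for Ccnb1 (SE 0.672, limma adjusted p = 0.00401).

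Cyclins and kinases of mitosis rose in 13 of 15 tested cases, and in 10 with mouse 1 put back. Spindle and motor genes followed with 19 of 22, and 15 with mouse 1 put back. Among them were Kif11, the motor that pushes spindle poles apart, and Tpx2, which nucleates spindle microtubules. Kif11 was at 31.73, 58.66 and 36.71 in day 4 mice, against 5.264, 6.86 and 6.5 in day 0 mice. Tpx2 was at 29.19, 99.39 and 65.49 in day 4 mice, against 10.53, 9.147 and 10.4 in day 0 mice, a log2 fold change of 2.89 (SE 0.404, limma adjusted p = 0.000136). In neither gene did the groups overlap.

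Kinetochore genes rose in 10 of 15 tested cases. Cenpf, a kinetochore protein of G2 and M phase, was at 20.31, 66.8 and 41.67 in day 4 mice, against 1.755, 3.442 and 5.268 in day 0 mice, with a log2 fold change of 3.66 (SE 0.59, limma adjusted p = 0.000375). Chromosome structure genes rose in 12 of 13 cases with or without mouse 1. One of them, Sgo1, the protector of centromeric cohesion, was at 1.269, 21.18 and 8.93 in day 4 mice and was listed at 0 in all 3 day 0 libraries, so no fold is given. Genes of mitotic exit and cytokinesis rose in 14 of 15 cases. The one exception, Ube2s, a ubiquitin-conjugating enzyme of the anaphase-promoting complex, had a log2 fold change of 0.29 (limma adjusted p = 0.263).

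With mouse 1 put back, 12 of the 15 exit and cytokinesis genes rose, and in 11 all 3 day 4 mice lay above every day 0 library. In some exit genes mouse 1 stood far from the other 2. Cdc20, the activator of the anaphase-promoting complex (chr4:118432901-118437352, minus strand), was at 12.69, 145.8 and 71.44 in day 4 mice, against 1.755, 14.86 and 19.5 in day 0 mice. Mouse 1 lay inside the day 0 range. The log2 fold change was 3.42 without mouse 1 (SE 0.751, limma adjusted p = 0.00392) and 2.45 with it (adjusted p = 0.0387). Kif20a, a motor of cytokinesis, was at 10.76, 70.39 and 49.46 in day 4 mice, against 11.21, 12.04 and 10.23 in day 0 mice, and was again level with day 0 in mouse 1. Ube2c, which works with Cdc20 in marking cyclin B for destruction, was no longer called with mouse 1, at a log2 fold change of 1.82 (limma adjusted p = 0.0932).

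The transcription factors of this program rose in 2 of 5 tested cases. Foxm1, the activator of G2 and M genes, was at 11.42, 52.14 and 42.66 in day 4 mice, against 1.755, 12.58 and 6.5 in day 0 mice, with a log2 fold change of 2.88 (SE 0.527, limma adjusted p = 0.00102). Mybl2, which binds the MuvB complex, was at 6.346, 17.92 and 3.969 in day 4 mice, against 0, 3.43 and 1.3 in day 0 mice. The MuvB subunits Lin9 and Lin54 were not called, at log2 fold changes of -0.18 and 0.03.

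About as many DNA replication genes rose as were not called. Of 80 tested members 39 rose and none fell. The median log2 fold change was 1.05, and with mouse 1 put back 27 rose with a median of 0.87. Under equal totals 70 rose. The list depended on mouse 2, without which 8 members rose, against 30 without mouse 3. Origin licensing led the roles with 8 of 11 raised, followed by checkpoint and repair with 11 of 16 and chromatin copying with 6 of 10, while polymerases and the clamp had 2 of 17. With mouse 1 put back, 4 of 11 licensing genes rose, 9 of 16 for checkpoint and repair and 5 of 10 for chromatin copying. Without mouse 2 the counts were 4 for licensing, 0 for checkpoint and repair and 2 for chromatin copying. Against saline glands of day 14, 22 members rose, with 5 for licensing, 3 for checkpoint and repair and 4 for chromatin copying. Helicase activation and fork genes then had 6 of 10, so the order of the roles depended on the control.

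Mcm6, a subunit of the replicative helicase (chr1:128331590-128359664, minus strand), was at 53.31, 114.9 and 80.37 in day 4 mice, against 10.53, 11.43 and 22.1 in day 0 mice. Mcm5, another subunit, was at 60.92, 126.3 and 67.47 in day 4 mice, against 12.28, 22.87 and 26 in day 0 mice. Both were above the day 0 range in every injured gland, mouse 1 included. The log2 fold changes were 2.70 for Mcm6 (SE 0.369, limma adjusted p = 0.000115) and 2.19 for Mcm5 (SE 0.376, limma adjusted p = 0.00062). The licensing factor Cdt1 was at 10.15, 35.03 and 19.84 in day 4 mice, against 10.53, 6.86 and 13 in day 0 mice, and was not called with mouse 1 (log2 fold change 0.91, limma adjusted p = 0.0791).

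The largest changes of the list were in Fanca, of the Fanconi crosslink repair complex, and Pole, the leading strand polymerase. Pole was at 11.42, 37.48 and 16.87 in day 4 mice, against 0, 2.287 and 2.6 in day 0 mice, with a log2 fold change of 3.52 (SE 0.556, limma adjusted p = 0.00032). Chaf1a, which places histones on new DNA, was at 12.03, 35.37 and 16.42 in day 4 mice, against 5.264, 2.384 and 2.643 in day 0 mice. Uhrf1, which carries DNA methylation over to the new strand, was at 64.73, 170.3 and 122 in day 4 mice, against 33.34, 26.3 and 39 in day 0 mice. In these 3 genes every injured gland was above every uninjured gland. Pcna, the sliding clamp, was at 284.5, 281.1 and 226.2 in day 4 mice, against 186, 184 and 204.1 in day 0 mice. Its groups did not overlap, but the change stayed under the 2-fold limit, at 0.40 on the log2 scale (SE 0.137, limma adjusted p = 0.0484).

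**Figure D2:**
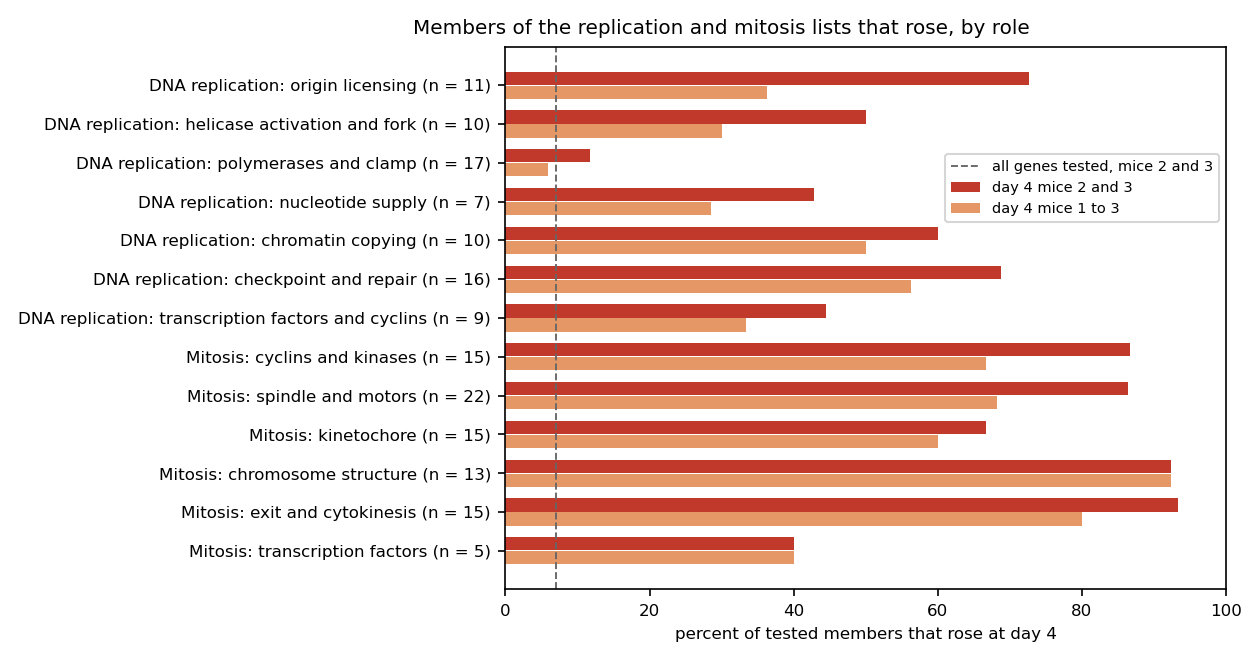
Percent of tested members that rose at day 4 relative to day 0, by role in the DNA replication and mitosis lists (n is the number tested), from day 4 mice 2 and 3 (red) and from mice 1 to 3 (orange); the dashed line marks the 6.97% of all genes that rose. Mitotic roles other than the transcription factors lie far right of the line in both fits, and polymerases with the clamp lie nearest to it, with 2 of 17.

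Of 24 tested genes of CDK inhibitors, pocket proteins, D cyclins and their kinases 3 rose and 1 fell. Other genes of entry into the cycle are in the replication list. There 4 of 9 tested transcription factors and cyclins rose, and 3 with mouse 1 put back. None of the 6 tested genes of D cyclins, their kinases and Myc rose, and Ccnd1, the main D cyclin, was at 416.8, 493.4 and 526.3 in day 4 mice, against 394.8, 527.1 and 571.7 in day 0 mice. Cdk6, a D cyclin kinase, fell at low counts, with 7.615, 8.147 and 3.969 in day 4 mice, against 12.28, 14.86 and 19.5 in day 0 mice (log2 fold change -1.27, SE 0.438, limma adjusted p = 0.0481). Of 7 tested CDK inhibitors 3 rose (1 without mouse 2), namely Cdkn1a (p21), Cdkn2c (p18) and Cdkn3, a phosphatase that acts on Cdk1 and Cdk2. Cdkn2c was not called with mouse 1 (log2 fold change 0.82, limma adjusted p = 0.0862). Cdkn1a was at 27.92, 46.44 and 30.76 in day 4 mice, against 14.04, 17.15 and 15.6 in day 0 mice.

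Because the mitotic genes moved together, their promoters were searched for the letters that the cell cycle factors are known to read. These were TTTGAA, the cell cycle homology region (CHR) bound by MuvB complexes, CCAAT, bound by NF-Y, and the E2F cores TTCGCGC and GGCGGGAA, each on both strands of the 250 bases before and 50 after each RefSeq start in GRCm38.p6. The CHR letters were in 44 of 61 promoters of raised mitosis members (72.1%), against 17.9% of all 32851 promoters, and CHR with CCAAT in 55.7%, against 6.95%. The promoters came from 57 of the 70 raised genes. Among mitosis members that were tested and not called, 52.9% of 17 promoters held CHR letters. Raised replication members (31 of 39 genes, 36 promoters) held an E2F core in 38.9%, against 3.71% of all promoters, and CHR letters in 16.7%. E2F cores were in 28.2% of the promoters of replication members not called. In 2 of the 97 promoters of raised members 2 of these matches overlapped. A match is a description of the letters and no evidence of binding.

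The 120 bases before the start of 6 raised genes are given as examples, with matches in capitals. The first 4 are mitosis genes with CHR and CCAAT letters on either strand, and the other 2 are replication genes with E2F cores. They do not stand for all raised members, since the shares above also count letters after the start. Other raised mitosis genes, among them Bub1, Ccnb1 and Plk1, held no CHR letters in the searched bases before the start.
Cdc20, chr4:118437344-118437463, minus strand: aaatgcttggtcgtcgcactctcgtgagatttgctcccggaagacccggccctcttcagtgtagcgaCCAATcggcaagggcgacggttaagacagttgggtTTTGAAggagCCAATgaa
Kif11, chr19:37376262-37376381, plus strand: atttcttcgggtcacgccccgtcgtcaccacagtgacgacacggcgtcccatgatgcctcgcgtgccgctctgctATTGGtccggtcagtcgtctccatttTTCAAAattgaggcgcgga
Espl1, chr15:102296173-102296292, plus strand: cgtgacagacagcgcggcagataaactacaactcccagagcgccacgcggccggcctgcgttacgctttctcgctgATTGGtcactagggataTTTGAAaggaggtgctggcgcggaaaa
Ube2c, chr2:164769809-164769928, plus strand: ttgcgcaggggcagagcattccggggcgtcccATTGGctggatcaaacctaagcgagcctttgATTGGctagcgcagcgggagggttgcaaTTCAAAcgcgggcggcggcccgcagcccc
Mcm6, chr1:128359706-128359825, minus strand: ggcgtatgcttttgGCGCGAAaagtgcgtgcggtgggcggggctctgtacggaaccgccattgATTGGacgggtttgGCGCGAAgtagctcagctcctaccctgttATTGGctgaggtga
Chaf1a, chr17:56040296-56040415, plus strand: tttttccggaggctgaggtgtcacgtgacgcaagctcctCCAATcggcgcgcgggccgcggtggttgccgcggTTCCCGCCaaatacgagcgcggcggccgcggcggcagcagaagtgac

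In the 4 mitosis promoters the last base of the CHR letters lay at -13 (Cdc20), -14 (Kif11), -22 (Espl1) and -24 (Ube2c), counted from the start site. Espl1, the separase that cuts the cohesin ring, rose with a log2 fold change of 3.32 (SE 0.783, limma adjusted p = 0.00651). It was at 5.077, 30.96 and 17.86 in day 4 mice, against 3.509, 2.287 and 0 in day 0 mice.

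Matrix genes formed another large group. Of 31 tested collagen genes 16 rose and none fell. The median log2 fold change was 1.21, and 14 rose with mouse 1 put back with a median of 0.95. Without mouse 2, 7 rose, among them 5 fibrillar and 0 type VI genes. Fibrillar collagens rose in 6 of 8 cases and the microfibrillar type VI chains in 5 of 5, whereas 1 of 7 basement membrane collagens rose. Lama4 and Nid1 were the 2 that rose of 14 laminins and nidogens, the other proteins of the basement membrane, and Nid1 was not called with mouse 1 (log2 fold change 0.87).

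Col1a1, a chain of type I collagen, was at 761.5, 2174 and 1467 in day 4 mice, against 293, 416.2 and 313.3 in day 0 mice. Col3a1, the type III chain of young scar and loose connective tissue, was at 5058, 9805 and 7853 in day 4 mice, against 1488, 1861 and 1543 in day 0 mice. Mouse 1 was the lowest injured gland for both and still above every uninjured gland. The log2 fold changes were 2.40 for Col1a1 (SE 0.373, limma adjusted p = 0.000281) and 2.43 for Col3a1 (SE 0.366, limma adjusted p = 0.00024). Col4a1, the main network collagen of basement membranes, was at 394.7, 575.2 and 543.7 in day 4 mice, against 238.6, 322.4 and 400.4 in day 0 mice, under the 2-fold limit (log2 fold change 0.83, SE 0.252, limma adjusted p = 0.0259).

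Enzymes that finish collagen rose in 14 of 25 cases, with 8 of 10 for cleavage and crosslinking and 4 of 13 for hydroxylation and folding. With mouse 1 put back 10 rose, without mouse 2 only 5 and without mouse 3 only 8, of which cleavage and crosslinking had 6, 2 and 5. Lox, which crosslinks collagen and elastin, was at 43.15, 97.76 and 65.49 in day 4 mice, against 14.04, 21.72 and 19.5 in day 0 mice (log2 fold change 2.08, SE 0.457, limma adjusted p = 0.00391). Plod2, which hydroxylates the lysines used in crosslinks, was at 27.92, 42.36 and 55.56 in day 4 mice, against 7.018, 6.86 and 14.3 in day 0 mice. The collagen chaperone Serpinh1 was at 256.4, 461.1 and 404.8 in day 4 mice, against 126.3, 186.4 and 178.1 in day 0 mice. In each of these 3 genes all injured glands exceeded all uninjured glands.

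Of 56 tested matrix glycoproteins 25 rose, while 19 rose with mouse 1 put back, 9 without mouse 2 and 16 without mouse 3. Fbn1, the fibrillin of elastic microfibrils, was at 488.7, 880.7 and 774.9 in day 4 mice, against 196.5, 253.8 and 217.1 in day 0 mice, with a log2 fold change of 1.90 (SE 0.277, limma adjusted p = 0.000194). Fn1, fibronectin, was at 623.2, 1583 and 1068 in day 4 mice, against 352.7, 444.8 and 352.3 in day 0 mice. In some members mouse 1 did not share the change. Tnc, tenascin C, was at 5.077, 48.88 and 25.8 in day 4 mice, against 0, 4.573 and 14.3 in day 0 mice, and was not called with mouse 1 (log2 fold change 2.19, limma adjusted p = 0.122). Has2, which makes hyaluronan, was at 5.077, 21.18 and 22.82 in day 4 mice, against 5.264, 3.43 and 3.9 in day 0 mice, with mouse 1 inside the day 0 range.

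Matrix proteases and their inhibitors rose in 14 of 30 cases, in 12 with mouse 1 put back and in 4 without mouse 2. Mmp14, the membrane metalloproteinase that activates Mmp2, was at 149.8, 255.8 and 175.6 in day 4 mice, against 77.2, 92.61 and 63.7 in day 0 mice (log2 fold change 1.45, SE 0.197, limma adjusted p = 0.000109). Timp1, an inhibitor of these enzymes, was at 16.5, 48.07 and 14.88 in day 4 mice, against 1.755, 1.143 and 2.6 in day 0 mice.

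Of 19 tested markers of the fibroblasts themselves 7 rose, 5 did so with mouse 1 put back and 4 without mouse 2. Pdgfra, a receptor that marks fibroblasts, was at 209.4, 241.1 and 234.2 in day 4 mice, against 131.6, 155.5 and 157.3 in day 0 mice, a log2 fold change of 0.68 (SE 0.211, limma adjusted p = 0.0292) that stayed under the 2-fold limit. Of 41 tested growth factor and receptor genes 3 rose, a share near the 6.97% of all genes, and 1 did so without mouse 2. These 3 were Tgfb1, Tgfbr2 and Pdgfrb, the last not with mouse 1 (log2 fold change 0.96). Tgfb1 was at 21.58, 55.4 and 38.7 in day 4 mice, against 22.81, 14.86 and 16.9 in day 0 mice, and was under the 2-fold limit with mouse 1 (log2 fold change 0.97, limma adjusted p = 0.0344).

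**Figure D3:**
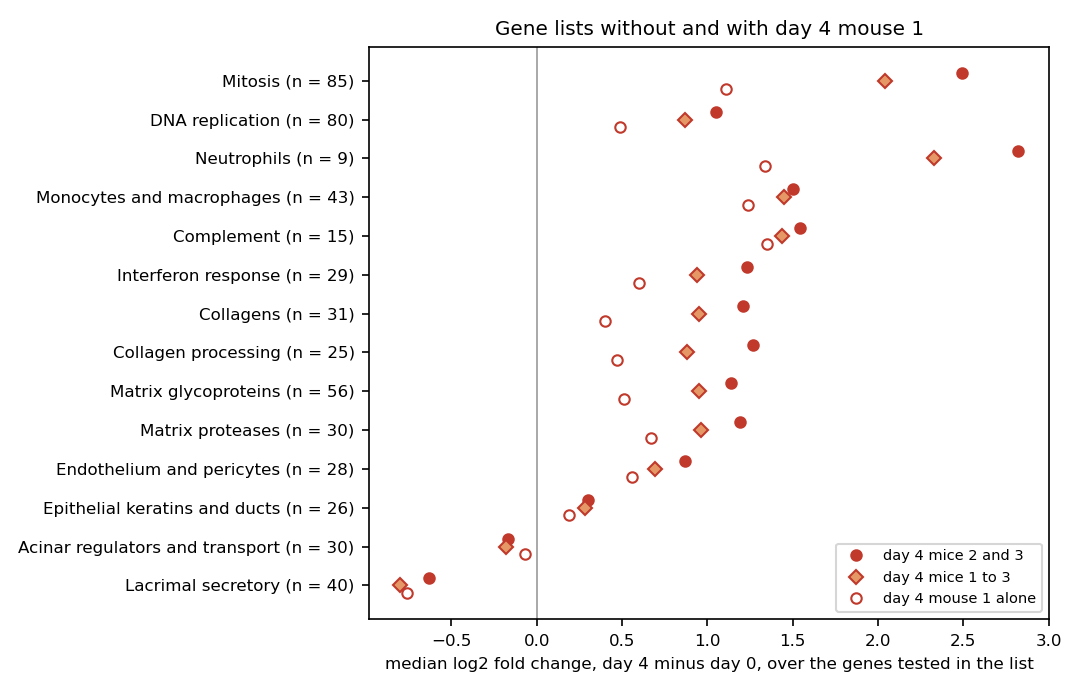
Median log2 fold change of day 4 minus day 0 over the tested genes of 14 lists (n in brackets), from day 4 mice 2 and 3 (filled circles), mice 1 to 3 (diamonds) and mouse 1 alone (open circles). Mitosis lies at 2.49, 2.04 and 1.11 and collagens at 1.21, 0.95 and 0.40, while monocytes and macrophages lie close together at 1.5, 1.45 and 1.24.

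Macrophage genes were high in mouse 1 as well. Of 43 tested monocyte and macrophage genes 32 rose with a median log2 fold change of 1.5, and 31 with mouse 1 put back with a median of 1.45. Without mouse 2, 23 rose. All 16 general myeloid genes rose in both fits, and 12 of them without mouse 2. Adgre1, the F4/80 antigen of macrophages (chromosome 17), was at 139.6, 190.6 and 156.8 in day 4 mice, against 40.36, 45.73 and 32.5 in day 0 mice, with a log2 fold change of 2.11 (SE 0.232, limma adjusted p = 3.28e-05). Ccr2, the receptor by which monocytes leave the blood, was at 185.9, 187.5 and 188.3 in day 4 mice, against 59.66, 48.8 and 35.1 in day 0 mice. The 3 injured glands were nearly equal in Ccr2, mouse 1 included. Of the 6 monocyte genes 3 rose, with or without mouse 1. Ly6c2, another monocyte marker, was not called, at 42.54, 42.31 and 34.12 in day 4 mice, against 10.41, 18.92 and 27.99 in day 0 mice (log2 fold change 1.06, limma adjusted p = 0.0926).

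Genes of resident macrophages rose in 8 of 10 cases, and in 4 without mouse 2, with Mrc1, the mannose receptor, at 416.3, 387.8 and 400.9 in day 4 mice, against 193, 155.5 and 105.3 in day 0 mice. Genes of phagocytic and lipid-laden macrophages rose in 5 of 11 cases. Trem2, their lipid receptor, was at 33, 51.32 and 37.7 in day 4 mice, against 7.018, 2.287 and 3.9 in day 0 mice (log2 fold change 3.15, SE 0.39, limma adjusted p = 5.87e-05). Spp1, osteopontin, was not called, at 48.23, 70.06 and 43.66 in day 4 mice, against 12.28, 9.147 and 214.5 in day 0 mice, where 1 uninjured gland was the highest of all 6.

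Other myeloid genes of large fold were spread more widely between the injured mice. Slfn4, an interferon-induced Schlafen gene of myeloid cells, was at 13.96, 96.87 and 43.66 in day 4 mice, against 0, 4.573 and 3.9 in day 0 mice (log2 fold change 4.46, SE 0.684, limma adjusted p = 0.000265). Gpnmb, a glycoprotein of phagocytic macrophages, was at 13.96, 63.54 and 32.74 in day 4 mice, against 1.755, 6.86 and 1.3 in day 0 mice. Mouse 1 was the lowest injured gland in both and above every uninjured gland.

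Complement genes rose in 14 of 15 tested cases, in all 15 with mouse 1 put back, in 12 without mouse 2 and in 11 without mouse 3. C3, the central component, was at 2443, 3295 and 2861 in day 4 mice, against 759.7, 944.4 and 458.9 in day 0 mice (log2 fold change 2.15, SE 0.247, limma adjusted p = 3.99e-05). Cfb, of the alternative pathway, was at 401.1, 376.2 and 377.9 in day 4 mice, against 60.34, 69.17 and 20.35 in day 0 mice (log2 fold change 3.07, SE 0.406, limma adjusted p = 9.88e-05). The 3 chains of C1q, which macrophages make, rose with log2 fold changes of 1.63 (C1qa), 1.52 (C1qb) and 1.23 (C1qc).

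The largest fold of any gene named by the rule was that of Saa3, an acute phase apolipoprotein (chr7:46711998-46715700, minus strand). It was at 143.4, 140.1 and 100.2 in day 4 mice, against 7.018, 1.143 and 1.3 in day 0 mice, with a log2 fold change of 5.13 (SE 0.608, limma adjusted p = 4.54e-05). Ccl8, a chemokine for monocytes, was at 384.6, 336.5 and 287.7 in day 4 mice, against 52.64, 27.44 and 3.9 in day 0 mice. Mouse 1 had the highest value of both genes. Of 29 tested cytokine and chemokine genes 9 rose, with 5 of 10 CC chemokines and 0 of 5 neutrophil attractants. With mouse 1 put back the list had 7 and the CC chemokines 4. Without mouse 2 the list had 4 and the CC chemokines 1, and without mouse 3 they had 6 and 3. Cxcl1, such an attractant, was at 6.346, 6.517 and 3.969 in day 4 mice, against 5.264, 3.43 and 9.1 in day 0 mice.

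Neutrophil genes rose in 5 of 9 tested cases, at low counts, and in 3 without mouse 2. Csf3r, the G-CSF receptor, was at 31.73, 36.66 and 20.84 in day 4 mice, against 0, 3.43 and 5.2 in day 0 mice. S100a9, a calcium-binding protein that fills neutrophils, was at 3.808, 25.25 and 2.977 in day 4 mice, against 0, 0 and 1.3 in day 0 mice. Retnlg was at 2.538, 13.85 and 12.9 in day 4 mice and listed at 0 in the day 0 libraries. Ly6g, the marker of mature neutrophils, was listed at 0 in all 6 libraries.

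Interferon-stimulated genes rose in 15 of 29 cases, in 14 with mouse 1, in 6 without mouse 2, in 9 without mouse 3 and in 5 against saline glands of day 14. Oas2, an enzyme that senses double-stranded RNA, was at 59.65, 115.7 and 102.2 in day 4 mice, against 19.3, 29.73 and 31.2 in day 0 mice. Of the antigen presentation genes, 6 of 13 of class I and 1 of 8 of class II rose. With mouse 1 put back 2 class I genes rose, and without mouse 2 it was 1. H2-Ab1, a class II chain, was at 280.5, 315.3 and 275.8 in day 4 mice, against 170.9, 180.7 and 148.2 in day 0 mice, under the 2-fold limit (log2 fold change 0.83, limma adjusted p = 0.0131).

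Vessel genes gave counts that depended on the libraries. Of 19 endothelial genes 6 rose, against 7 with mouse 1, 4 without day 0 mouse 1 and 1 against saline glands. Of 9 genes of pericytes and smooth muscle 5 rose, against 3 with mouse 1, 1 without day 4 mouse 2, 2 without day 4 mouse 3, 1 without day 0 mouse 1 and 0 against saline glands. Selp, P-selectin, by which activated endothelium slows white cells, was at 18.64, 19.31 and 23.7 in day 4 mice, against 3.509, 4.573 and 1.3 in day 0 mice. Pecam1, a general endothelial marker, was at 179, 131.2 and 175.6 in day 4 mice, against 78.96, 102.9 and 80.6 in day 0 mice, under the 2-fold limit.

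Lymphocyte genes were at low counts. Of 9 tested T and NK cell genes 3 rose, 5 with mouse 1 and 1 without mouse 2, and of 5 tested B cell genes 3 rose, 4 with mouse 1 and 1 without mouse 2. Gzma, granzyme A of cytotoxic cells, was at 20.31, 27.7 and 29.77 in day 4 mice, against 10.53, 4.573 and 3.9 in day 0 mice. The T and NK cell list has 23 members, most of them below the filter on low values. Among the defining markers, Cd3e, Cd3d and Klrb1c did not pass it. Cd3g (log2 fold change 0.98, limma adjusted p = 0.42) and Ncr1 (log2 fold change 1.14, limma adjusted p = 0.185) were not called. Ms4a1, the CD20 antigen of B cells, was at 36.81, 10.59 and 13.89 in day 4 mice and listed at 0 in the 3 day 0 libraries. Of 13 tested plasma cell genes none was called. Igha, the constant part of IgA, was at 4752, 1541 and 173.6 in day 4 mice, against 722.9, 456.2 and 4560 in day 0 mice, a spread that covers both groups.

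Part of the secretory genes fell. Of 40 tested lacrimal secretory genes 9 fell and none rose, 7 of them among the 10 tested exocrine gland-secreted peptides (Esp), small peptides released in tears, some of which act as pheromones in mice. Fewer were called with mouse 1, at 6 secretory genes and 3 Esp genes, and against saline glands, at 4 and 2. Without mouse 2 the counts were 6 and 4. The median of the secretory list was -0.63 and turned to 0.06 under equal totals, where 4 genes fell. The Esp median was -1.16 and kept its sign at -0.42 under that scaling. Esp genes lie close together and resemble each other, so the assignment of reads among them is uncertain.

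Esp36 (chromosome 17) was at 3668, 2336 and 2446 in day 4 mice, against 9166, 8018 and 12079 in day 0 mice, with a log2 fold change of -2.01 (SE 0.32, limma adjusted p = 0.000349). Esp31 was at 13738, 7750 and 6425 in day 4 mice, against 31666, 25509 and 17754 in day 0 mice (log2 fold change -1.78, SE 0.348, limma adjusted p = 0.00161). Esp15 was at 226092, 108162 and 117946 in day 4 mice, against 285689, 229151 and 240366 in day 0 mice. Mouse 1 was just below the day 0 range in Esp15, and the gene was not called with it (log2 fold change -0.82, limma adjusted p = 0.0573).

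Pnliprp1, a lipase-related protein gene, was at 22543, 22562 and 17156 in day 4 mice, against 88867, 52499 and 80218 in day 0 mice (log2 fold change -1.87, SE 0.306, limma adjusted p = 0.000411). Mup4, of the major urinary protein family, was at 3023, 3572 and 2817 in day 4 mice, against 11387, 6788 and 7416 in day 0 mice (log2 fold change -1.39, SE 0.19, limma adjusted p = 0.000116). For both genes mouse 1 resembled mice 2 and 3, and both were called with it.

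The rest of the secretory program was not called, which does not show that it was level. Of the 40 tested secretory genes, 16 lay below every day 0 library in all 3 day 4 mice and 1 lay above, against 11.9% and 14.5% of all genes. The 11 tested secretoglobin genes summed to 913476, 776584 and 720259 in day 4 mice, against 1655672, 1354358 and 1164955 in day 0 mice. Sums of the 14 odorant-binding and tear protein genes did not overlap either and were lower at day 4. Ltf, lactoferrin, was at 11927, 9102 and 10388 in day 4 mice, against 8278, 8501 and 8503 in day 0 mice. Of 30 tested acinar regulators and transport genes none was called, including Bhlha15, the factor that matures secretory cells, at 6618, 6187 and 5246 in day 4 mice, against 7048, 8142 and 6566 in day 0 mice. Its log2 fold change was -0.34 (SE 0.128, limma adjusted p = 0.0683). Of 11 tested secretoglobin genes none was called without mouse 1 and 1 was with it. This gene, Scgb2b24, was at 23174, 77999 and 66732 in day 4 mice, against 159860, 203063 and 120539 in day 0 mice, and was called with mouse 1 (log2 fold change -1.67, limma adjusted p = 0.0132) but not without it (-1.13, adjusted p = 0.0613).

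Of 26 tested epithelial keratin and duct genes 2 rose, a share near the 6.97% of all genes. Krt14, of basal and myoepithelial cells, was at 187.5, 210.5 and 240.8 in day 4 mice, against 108.8, 127.8 and 99.67 in day 0 mice, with a log2 fold change of 1.01 (SE 0.177, limma adjusted p = 0.000761), and of 0.92 with mouse 1, under the limit. Lcn2, lipocalin 2, which duct cells and neutrophils both make, was at 134.5, 132.8 and 238.1 in day 4 mice, against 33.34, 44.59 and 42.9 in day 0 mice. Some of the largest folds were at low counts or in genes with near-identical copies and are uncertain. Btg3, an antiproliferative gene, was at 53.29, 44.7 and 19.72 in day 4 mice, against 0.0141, 0.5866 and 1.226 in day 0 mice. Against saline glands its log2 fold change turned to -0.79 (-0.52 with mouse 1). Rps6-ps4, a ribosomal pseudogene, fell only without mouse 1, at 357.9, 97.08 and 148.5 in day 4 mice, against 516.1, 559 and 414.6 in day 0 mice. Ribosomal protein genes (78 tested), oxidative phosphorylation genes (75) and the endoplasmic reticulum and ATF4 genes (32) held no called member.

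Taken alone, mouse 1 lay above all day 0 libraries in 829 of the 959 raised genes (86.4%) and below all of them in 46 of the 58 lowered genes (79.3%), against 25.7% and 26.5% of all genes tested. Its median difference from day 0 was smaller, at 1.09 on the log2 scale over the raised genes, against 1.57 in mice 2 and 3, which chose them. It was within the day 0 range in 121 raised genes and on the other side in 9. The raised and lowered genes were chosen with the same day 0 libraries, so the shares over all genes are not a neutral reference. The profile of mouse 1 correlated with mice 2 and 3 at r = 0.958 and 0.956 and with the day 0 libraries at r = 0.939 to 0.954 across 13762 genes, which are not independent. Of the 5 raised genes of largest fold that mouse 1 did not share, Cdc20 and Pttg1, the securin, act in anaphase, Tnc is a matrix protein and Alox15 is a lipoxygenase of macrophages. Alox15 was not called with mouse 1 (log2 fold change 2.02, limma adjusted p = 0.07). The other, Sapcd2, was at 5.077, 26.88 and 13.89 in day 4 mice, against 0, 1.143 and 5.2 in day 0 mice.

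**Figure D4:**
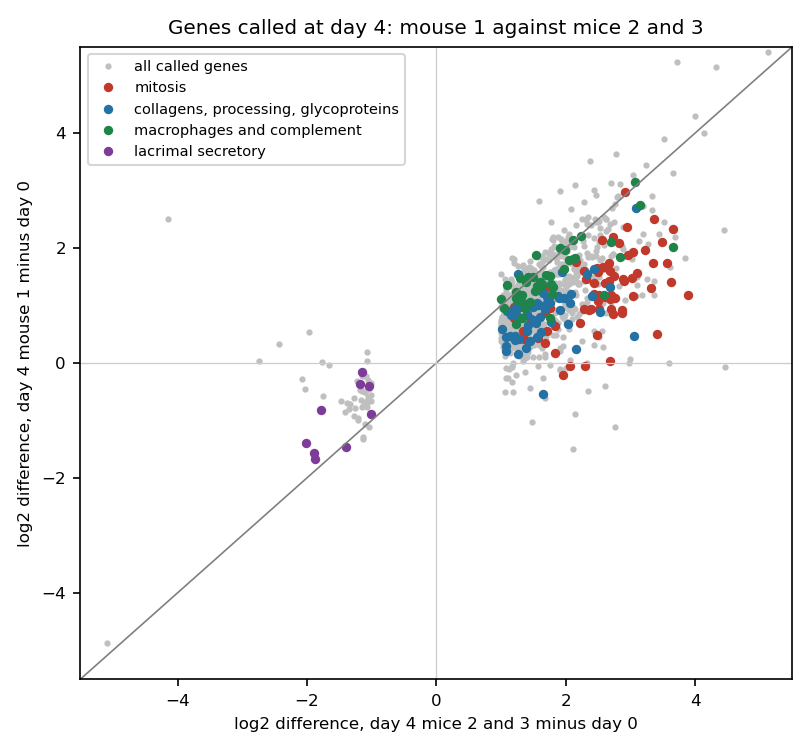
Log2 difference from day 0 of the genes called at day 4, in mice 2 and 3 (horizontal axis) and in mouse 1 alone (vertical axis), with the line of equal difference. The median over the raised genes is 1.09 in mouse 1 and 1.57 in mice 2 and 3. The colours mark mitosis (red), matrix (blue), macrophage and complement (green) and lacrimal secretory genes (purple).

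Day 4 was also set against the neighbouring days. Against day 5, 0 of 13762 genes were called in either direction (0%) by limma, with or without mouse 1, and 478 genes (3.47%) had an unadjusted p under 0.05, the smallest adjusted p being 0.823. A count of 0 does not show that the days were alike. The genes of smallest p in this contrast included Col12a1 and Col11a1. Col11a1 was at 0, 0 and 0.9922 in day 4 mice, against 20.88, 12.84 and 20.62 in day 5 mice, and Col12a1 at 27.92, 36.66 and 34.73 in day 4 mice, against 93.16, 133.5 and 313.7 in day 5 mice. In both collagens the 2 days did not overlap.

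Against day 3, 139 genes were higher at day 4 (1.01%) and 40 lower (0.291%). The higher genes included 6 of 8 fibrillar collagens, 9 of 29 interferon genes, 6 of 15 complement genes and 3 of 85 mitosis genes. Col3a1 was at 5058, 9805 and 7853 in day 4 mice, against 1091, 2298 and 3568 in day 3 mice (log2 fold change 2.08, limma adjusted p = 0.00435). Among mitosis genes Tpx2, Ncapg2 and Ect2 passed, while Mki67 did not, at 138.3, 419.6 and 258 in day 4 mice, against 49.25, 194.6 and 222.3 in day 3 mice (log2 fold change 1.35, limma adjusted p = 0.122). Genes lower at day 4 included 4 sterol genes and 3 Esp genes. The day 3 libraries stand apart in other genes too. Zhx2, a transcriptional repressor, was at 100.3, 97.76 and 83.35 in day 4 mice, against 7.434, 10.01 and 8.158 in day 3 mice. In day 0 mice it was at 78.96, 115.5 and 132.6. Mup10 was at 45.88, 72.09 and 52.07 in day 4 mice and listed at 0 in the 3 day 3 libraries. Shisa7 was at 20.31, 16.29 and 8.93 in day 4 mice, against 121.7, 87.83 and 93.81 in day 3 mice. Whether the day 3 mice differed in more than the day was not tested. Without day 4 mouse 2 the higher genes numbered 14, without day 4 mouse 3 they numbered 54, and without day 3 mouse 1 they numbered 52. With day 4 mouse 1 put back, 135 genes were higher (0.981%) and 45 lower (0.327%).

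Against day 2, 66 genes were higher at day 4 (0.48%) and 259 lower (1.88%). Day 2 mouse 3 was left out of this fit, and its values are the last of each day 2 set below. Lower genes included 7 of 9 neutrophil genes and 16 of 43 monocyte and macrophage genes. Ccr2 was at 185.9, 187.5 and 188.3 in day 4 mice, against 690.4, 529.1 and 746.3 in day 2 mice (log2 fold change -1.68, limma adjusted p = 0.00044). S100a9 was at 3.808, 25.25 and 2.977 in day 4 mice, against 334.7, 277.7 and 327.6 in day 2 mice. Skeletal muscle genes were lower in 18 of 20 cases, and Acta1, listed at 0 in the 3 day 4 libraries, was at 602.5, 688.3 and 2125 in day 2 mice. Higher genes included 7 of 56 matrix glycoproteins, among them Mfap4, a microfibril protein, at 26.65, 97.76 and 49.61 in day 4 mice, against 7.137, 6.672 and 15.06 in day 2 mice (log2 fold change 3.16, limma adjusted p = 0.000602). Without day 2 mouse 1, 13 genes were higher and 22 lower, and without day 4 mouse 3, 29 and 59. With day 4 mouse 1 put back, 63 were higher (0.458%) and 367 lower (2.67%).

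**Figure D5:**
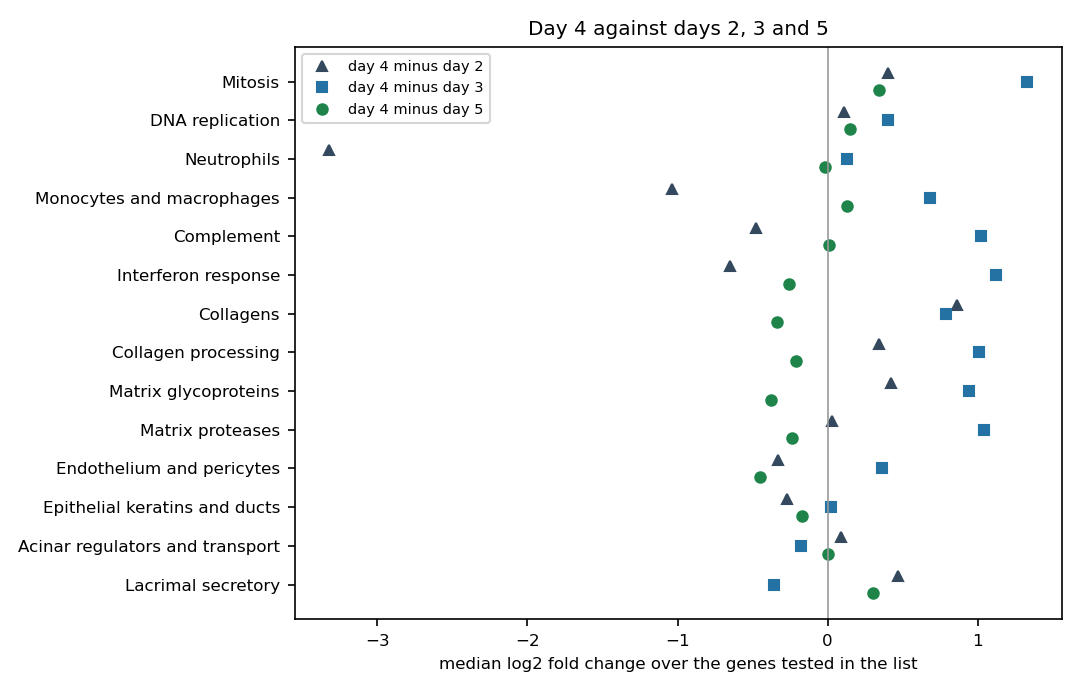
Median log2 fold change of day 4 minus day 2 (triangles), day 3 (squares) and day 5 (circles) over the tested genes of 14 lists. The neutrophil list is far lower at day 4 than at day 2, the matrix and complement lists lie right of 0 against day 3, and the lists lie between -0.45 (endothelium and pericytes) and 0.34 (mitosis) against day 5.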

How the data were processed

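Whole lacrimal glands were sequenced by the authors from total RNA (miRNeasy, TruSeq Stranded mRNA kit). Per the labels and methods, reads were aligned to mm10 with STAR, counted per gene with RSEM and scaled with DESeq2; versions are not given in the sources used here. The deposited values are a signal, RSEM estimated counts divided by 1 size factor per library, with a median ratio between genes near 1 over 13325 genes above 0 in every library. Whole reads could not be recovered from them, so no count test was run. Sampling error at low counts is therefore known only through the spread between mice.

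Genes at 10 or more in at least 2 of 23 libraries (13762 of 43346) were tested on log2(value + 1) with limma 3.58.1 (R 4.3.3) with a trend, 1 coefficient for each of 9 groups, 14 residual degrees of freedom and Benjamini-Hochberg adjustment. The 3 libraries that the study left out stayed out, and day 4 mouse 1 was put back in a second fit. Of 27 libraries 26 have a column in the table used here. Tables and figures were made with Python 3.11.15. The test was checked on simulated data. Names came from GENCODE for 42462 identifiers, and 884 had none. The members and gene lists were chosen with earlier results of these data known. Named genes were the 12 called genes that rose most and the 8 that fell most, with a usable symbol and no overlap between groups, up to 4 called genes of each list and any going against it, 5 in each direction of each contrast between days (3 of smallest p where none was called), 5 that mouse 1 shared and 5 it did not, and the defining marker of each cell type; other genes were chosen after their values were seen. A few genes within the lists are counted in them but not reported here. Same-numbered mice of day 4 and day 5 deviated together (r = 0.129, 0.158 and 0.311), where a replicate block also gave 0 called genes. Alternatives covered the libraries, scaling, filter, pseudocount, block, control group and fold limit.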

Additional observations from a re-analysis of the deposited data

Results flagged for a closer look

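The contrasts between days compared different mice, so a change over time cannot be told apart from other differences between the mice of each day. Day 4 differed from day 3 in 139 genes that were higher and 40 that were lower at day 4, and from day 2 in 66 higher and 259 lower genes (limma, adjusted p at most 0.05 and at least 2-fold). Day 4 mouse 1, which the study left out, held a signal of its own against day 0, with 91 genes higher and 21 lower when it stood alone for day 4; this lone library is assumed to vary like the other groups. Of these, 87 were among the 959 genes raised in mice 2 and 3 and 2 among the 58 lowered.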

How the results depend on the processing

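Of 7216 combinations of 328 described genes and settings, 4959 (68.7%) kept direction and call, 2235 kept the direction and lost the call, and 22 reversed; the causes were not tested. For genes higher at day 4 than at day 0 (959), libraries scaled to equal totals gave 3759, mouse 1 alone 91, the 2 groups fitted alone 330, or 371 with mouse 1, and leaving out single mice 362 to 1011. For genes lower (58), putting mouse 1 back gave 35, equal totals 11, all libraries put back 27, mouse 1 alone 21, equal upper quartiles 38, the 2 groups alone 27, or 17 with mouse 1, saline glands of day 14 as control 101, or 98 with mouse 1, adjusted p alone 1143, and leaving out single mice 21 to 67. With mouse 1 in the fit (816 and 35), leaving out single mice gave 453 to 784 and 21 to 41; without mouse 2 they were 453 and 33, and without mouse 3, 561 and 21. With the replicate number as a block, 868 genes were higher and 46 lower than at day 0, 114 and 41 than at day 3, 55 and 187 than at day 2, and 0 in each direction against day 5; same-numbered mice of day 4 and day 0 correlated at r = 0.123, 0.215 and -0.017, so the numbers were not taken to pair them. Leaving out single mice gave 14 to 213 higher and 13 to 47 lower genes against day 3, 13 to 45 higher and 22 to 146 lower against day 2, and 0 against day 5. Against day 2, equal totals gave 38 higher genes. Under equal totals the raised replication genes went to 70 and interferon genes to 28, and the lowered secretory genes to 4. With saline glands as control the reversed log2 fold changes were -0.79 for Btg3 (-0.52 with mouse 1), 1.77 for Irs2 (1.98), 0.18 for Dusp1 (0.20), -0.09 for Ccn4 (-0.31) and -0.13 for Fbln7 (-0.86), and, with mouse 1 only, -0.05 for Tap1, -0.04 for Cdt1 and -0.22 for Cspg4. With mouse 1 alone they were 0.33 for Serpinc1, -1.49 for Ccl2, -0.03 for Wdhd1, -0.05 for Kif20a, -0.21 for Kif2c, -0.05 for Spc24, -0.54 for Fbln7, -0.15 for Il1b and -0.26 for Cspg4. The alternatives with single day 0 mice left out or with saline control while mouse 1 was in the fit were chosen after seeing the data.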

Other observations

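Further genes outside the lists, chosen after their values were seen, rose at day 4. Ms4a7, a membrane protein of macrophages, was at 78.69, 104.3 and 105.2 in day 4 mice 1 to 3, against 17.55, 18.29 and 16.9 in day 0 mice (log2 fold change 2.51, limma adjusted p = 3.85e-07). Stab1, a scavenger receptor, was at 227.2, 386.2 and 315.5 in day 4 mice, against 64.92, 88.04 and 92.29 in day 0 mice. Cpxm1, a carboxypeptidase-like protein, was at 118, 147.5 and 144.9 in day 4 mice, against 22.81, 21.72 and 18.2 in day 0 mice. Sfrp4, a secreted modulator of Wnt signals, was at 67.27, 70.06 and 105.2 in day 4 mice, against 28.07, 14.86 and 22.1 in day 0 mice. In these 4 genes no injured gland overlapped an uninjured one, mouse 1 included.

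Outside the secretory genes, Cited2, a transcriptional coregulator, fell, with 267.8, 259.1 and 202.4 in day 4 mice, against 538.7, 546.5 and 507 in day 0 mice (log2 fold change -1.21). Txnip, which binds thioredoxin, was at 1705, 1251 and 1350 in day 4 mice, against 4068, 2496 and 2372 in day 0 mice. Per2, a clock gene, was at 57.12, 74.14 and 114.1 in day 4 mice, against 19.3, 42.3 and 36.4 in day 0 mice. The time of day at which glands were taken is not given in the sources used here.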
